A study of Mus musculus with 12 samples.

Results

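Collagens other than type IV, and the proteins that crosslink, bind or coat them in connective tissue, were followed in renal cortex of nephrotic and normal mice. The genes were taken by symbol alone, with no use of their values: every gene named Col with a chain number except the type IV chains, and 17 named matrix genes, among them Fn1, Eln, Dcn, Bgn, Sparc and the lysyl oxidases. This gave 107 of 45101 probe sets, which stand for 51 of the 18193 genes that the array annotation names by 1 symbol. Signal lay above the median of its own array in at least 3 of 12 arrays for 37 of the 51 genes, and these were tested among 12385 genes in all. Loxl2 and Fbn1 have no probe set with a single symbol and are not analysed here, and neither are the 6 type IV collagen genes.

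The cortex came from ICGN mice, whose labels give the phenotype nephrotic syndrome, and from ICR mice, the normal strain from whose stock ICGN was derived. ICGN mice are known to carry a mutation of Tns2, which encodes a cytoskeletal adaptor, and to develop a hereditary glomerular disease. Mice of each strain were sampled at ages of 4 weeks and 8 weeks, with no treatment named in the labels, and each of the 4 groups has 3 Affymetrix arrays. ICGN against ICR is a comparison of a mutant strain with an outbred stock, so the mutation and other genetic differences between them cannot be told apart. Since the labels number the samples without saying how many mice each holds, a p-value here reflects only how far samples of a group scatter, which may be technical, and the number of arrays limits the precision.

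Interstitial matrix is made mainly by fibroblasts, pericytes and the cells of vessel walls. Fibrillar collagens are secreted as procollagens, trimmed outside the cell and assembled into fibrils, which lysyl oxidases crosslink. Fibril-associated collagens and small leucine-rich proteoglycans bind to the fibril surface, type VI collagen forms beaded filaments around cells, and elastin with fibulins forms elastic fibres. Fibronectin, tenascin C, periostin and SPARC are matrix glycoproteins found in growing and in repairing tissue. Matrix genes are active while the kidney grows after birth, and in chronic kidney disease the same proteins build up between the tubules as fibrosis.

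The values are deposited MAS5 signals brought to one array median, 40.4, because the authors' arrays had been scaled to a target of 100 at 4 weeks and 500 at 8 weeks. Age and the set of arrays scaled together therefore cannot be told apart in any comparison of 8 with 4 weeks, while each strain comparison lies within one age. The ratio of 3' to 5' signal for Actb, a measure of RNA and labelling quality, was 1.34 to 1.49 in the 6 arrays at 4 weeks, 1.57 to 1.64 in ICGN at 8 weeks and 1.70 to 2.10 in ICR at 8 weeks, and its part in the results was not tested. In 3 of the 4 groups one array was the highest for most of the 37 genes: ICR replicate 2 for 26 and ICGN replicate 1 for 28 at 4 weeks, and ICR replicate 1 for 21 at 8 weeks. Proximal tubule and podocyte genes were present in every group. The summed signal of 9 such genes, most of it from proximal tubule genes, was 23700.5 to 30611 in ICGN at 8 weeks against 40496 to 49483 in ICR. For the podocyte genes, means at 8 weeks in ICGN and ICR were 125 and 150 for Nphs1, 913 and 1082 for Podxl, and 314 and 231 for Synpo. In bulk tissue a change in the number of cells of a type and a change in RNA per cell cannot be told apart. Log2 fold changes are on the scale of log2(signal + 9), relative to the median tested gene of each comparison (± SE of the fit). The tests used values without that subtraction, so the sign of a small printed difference can differ from that of the value tested. A call means a limma p-value, adjusted over 12385 genes, of 0.05 or less.

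The first comparison asks how matrix genes of nephrotic cortex differed from normal at 8 weeks. Of the 37 genes, 17 were higher in ICGN and 2 lower. The shares, 45.9% and 5.41%, stand against 8.53% higher and 26.1% lower of all genes tested (34.6% in either direction). The median of the 37 genes was 0.67 on the log2 scale, with the median of all genes at 0 by construction. Signals of the 3 ICGN arrays all lay above those of the 3 ICR arrays for 23 of the 37 genes, which held for 11.2% of all genes, and all below for 2, which held for 33.3%. Among all called genes 24.7% were higher, a split that depends on the scaling: it was 39.5% after centring on the tested genes, 50.5% after quantile normalization and 60% on the deposited scale. Under the same 3 scalings 21, 19 and 23 of the 37 genes were called higher.

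At 4 weeks the same comparison called 1 gene higher (Col18a1) and 2 lower (Col3a1 and Eln) of 37. These shares of 2.7% and 5.41% compare with 1.59% higher and 1.4% lower of all genes (2.99% in either direction). The median of the 37 genes was -0.09, and the 2 groups of 3 arrays did not overlap for 2 genes higher (10.8% of all genes) and 8 lower (12.1%). Each of the 3 calls was lost when 1 of several arrays was left out, as given with each gene.

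**Figure D1:**
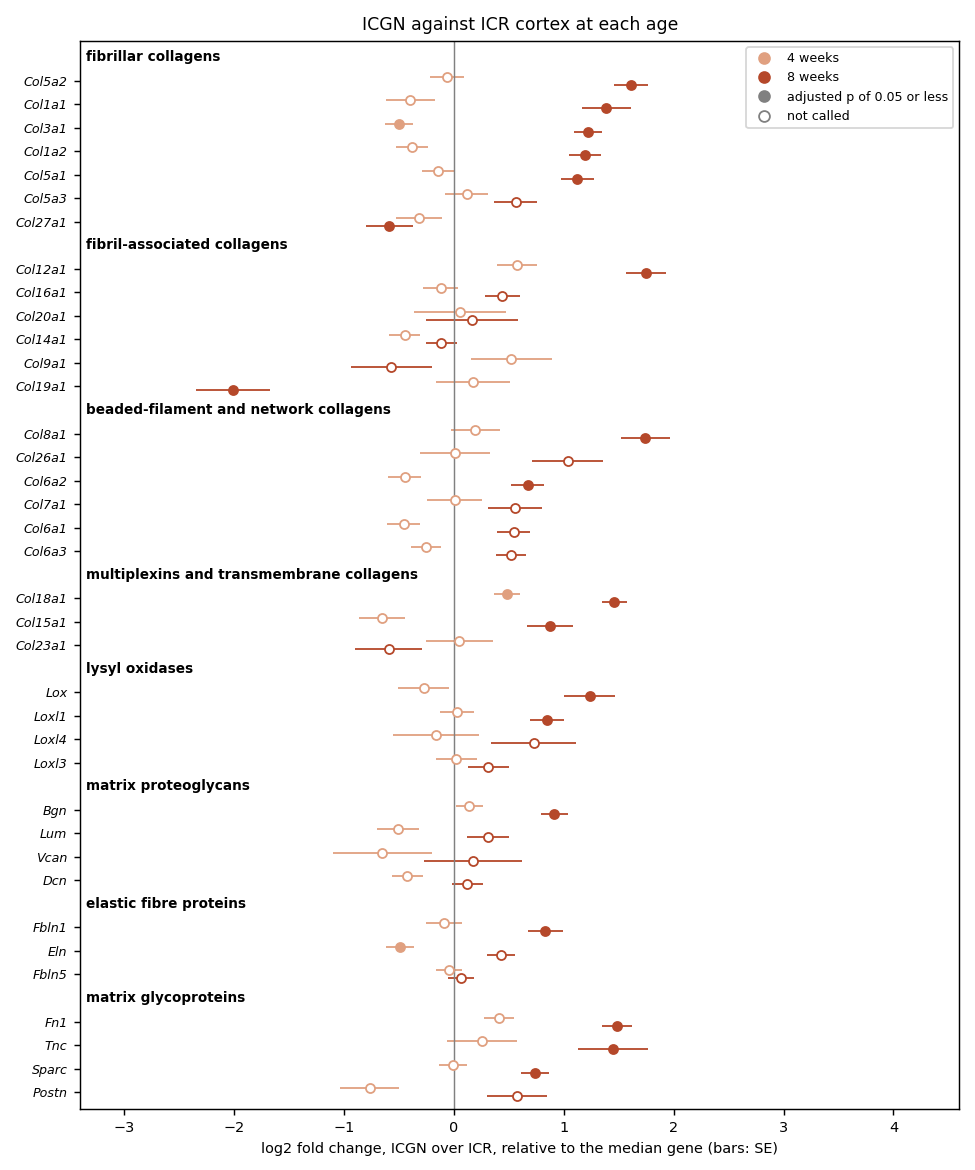
Log2 fold change of ICGN over ICR for the 37 tested genes, grouped by role, at 4 weeks (light) and 8 weeks (dark), with SE bars of the fit on 12 arrays; filled points are called (adjusted p at most 0.05). At 8 weeks 17 filled points lie right of 0 and 2 left of it, while at 4 weeks 3 points are filled.

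Promoter sequence is shown for Col1a2, Col8a1 and Col18a1, genes of 3 roles whose ICGN mean at 8 weeks lay above both ICR means, picked after their values were seen. Each line gives the 250 bases before the start of the RefSeq gene model, read 5′ to 3′ on the gene's strand in GRCm38.p6: chr6:4505368-4505617 (plus strand) for Col1a2, chr16:57754738-57754987 (minus strand) for Col8a1 and chr10:77166531-77166780 (minus strand) for Col18a1. Capitals mark the CCAAT box, searched as CCAAT and its reverse complement, and the GC box, searched as GGGCGG and its reverse complement, and no match overlapped another.
Col1a2: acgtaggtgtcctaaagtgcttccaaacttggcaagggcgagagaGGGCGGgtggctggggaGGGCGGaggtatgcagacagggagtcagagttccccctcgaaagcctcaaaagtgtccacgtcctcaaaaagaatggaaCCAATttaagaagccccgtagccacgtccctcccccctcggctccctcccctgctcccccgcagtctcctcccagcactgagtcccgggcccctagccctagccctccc
Col8a1: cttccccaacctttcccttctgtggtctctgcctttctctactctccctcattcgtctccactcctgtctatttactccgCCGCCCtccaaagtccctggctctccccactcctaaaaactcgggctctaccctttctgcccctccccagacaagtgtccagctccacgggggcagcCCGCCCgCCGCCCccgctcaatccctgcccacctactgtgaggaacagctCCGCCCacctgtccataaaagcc
Col18a1: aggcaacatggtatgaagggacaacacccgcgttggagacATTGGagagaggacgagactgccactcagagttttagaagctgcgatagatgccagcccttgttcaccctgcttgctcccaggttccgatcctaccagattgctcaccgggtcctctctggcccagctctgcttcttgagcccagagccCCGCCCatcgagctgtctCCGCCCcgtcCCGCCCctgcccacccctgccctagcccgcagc
Col1a2 held 1 CCAAT and 2 GGGCGG matches, Col8a1 held 4 GGGCGG matches, and Col18a1 held 1 CCAAT and 3 GGGCGG matches. Of the 17 genes higher in ICGN at 8 weeks 11 had an entry in the RefSeq table, and CCAAT was found in 2 of them and GGGCGG in 8. Over all 32851 promoter windows of that length the shares were 33.8% and 32.7%. A gene was counted if any of its windows held the motif, while these are shares of windows, so the units differ. A match describes letters in the window and says nothing of a factor bound there.

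Among the fibrillar collagens, which form the load-bearing fibrils, 5 of 7 tested genes were higher in ICGN than ICR at 8 weeks and 1 was lower. Col1a1 and Col1a2 encode the chains of type I collagen. Signals of Col1a1 were 581, 1344 and 862 in ICR and 766, 628 and 585 in ICGN at 4 weeks, and 215, 201 and 169.6 in ICR and 495, 389 and 499.97 in ICGN at 8 weeks. All 3 ICGN arrays exceeded all 3 ICR arrays at 8 weeks, and the groups overlapped at 4 weeks, where ICR replicate 2 stood far above the other ICR arrays. The Col1a1 difference at 8 weeks was 1.39 ± 0.22 (SE; limma adjusted p = 0.00097), and at 4 weeks -0.40 ± 0.22 (adjusted p = 0.42). At 4 weeks Col1a2 gave 2384, 3619 and 2488 in ICR and 2306, 1991 and 2027 in ICGN, and at 8 weeks it gave 1627, 1353 and 1506 in ICR and 2925, 2905 and 3203 in ICGN. Here too the strains lay apart at 8 weeks, with ICGN higher by 1.19 ± 0.15 (SE; limma adjusted p = 0.00016), while at 4 weeks every ICGN array read lower than every ICR array without a call (-0.38 ± 0.15, adjusted p = 0.18).

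Type III collagen, whose chain Col3a1 encodes, forms thin fibrils together with type I. The Col3a1 signal was 4448, 5820.1 and 4212 in ICR and 3613, 3250.0 and 3162 in ICGN at 4 weeks, and 1609, 1476 and 1558 in ICR and 2932, 3214 and 3393 in ICGN at 8 weeks. The order of the strains was opposite at the 2 ages: ICGN arrays were all below ICR at 4 weeks and all above at 8 weeks. Col3a1 was lower in ICGN by 0.50 ± 0.13 at 4 weeks (SE; limma adjusted p = 0.04) and higher by 1.22 ± 0.13 at 8 weeks (SE; limma adjusted p = 4.9e-05). The 4-week call was lost without any one of the 3 ICGN arrays or ICR replicates 1 and 2 at 4 weeks, or ICGN replicate 2 at 8 weeks, with values from -0.56 to -0.33 and adjusted p-values from 0.0577 to 0.171. It was also lost after quantile normalization (-0.40, adjusted p = 0.112), and on the deposited scale, with no filter, without the mean-variance trend and with only the 6 arrays compared (values of -0.51 or -0.50, adjusted p-values from 0.0516 to 0.0712).

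Type V collagen sits inside type I fibrils and sets their width. For Col5a1, the 3 arrays read 354, 449.5 and 431 in ICR and 406, 393 and 306 in ICGN at 4 weeks, against 156, 114 and 159 in ICR and 265, 300.1 and 275 in ICGN at 8 weeks. At 4 weeks Col5a2 gave 419.7, 592 and 423 in ICR and 514, 458 and 378 in ICGN, and at 8 weeks it gave 133, 106 and 135 in ICR and 328, 355 and 365 in ICGN. At 8 weeks both genes read higher in each ICGN array than in any ICR array, and at 4 weeks the strains overlapped for both. The difference at 8 weeks was 1.13 ± 0.15 (SE; limma adjusted p = 0.00034) for Col5a1 and 1.61 ± 0.15 (SE; limma adjusted p = 1.6e-05) for Col5a2. The third chain gene, Col5a3, ranged from 48.3 to 96.9 over the 12 arrays and was not called (0.56 ± 0.19, adjusted p = 0.15). Col27a1, which encodes a chain of a fibrillar collagen best known from cartilage, went the other way. The Col27a1 signal was 630.3, 426 and 769 in ICR and 363, 495 and 568 in ICGN at 4 weeks, and 799, 661 and 659 in ICR and 465, 463 and 316 in ICGN at 8 weeks. At 8 weeks it was lower in every ICGN array than in any ICR array, by 0.59 ± 0.21 SE (limma adjusted p = 0.011). That call was lost after quantile normalization (-0.52, adjusted p = 0.0975), on the deposited scale (-0.58, adjusted p = 0.0992) and without ICGN replicate 3 at 8 weeks (-0.35, adjusted p = 0.053).

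**Figure D2:**
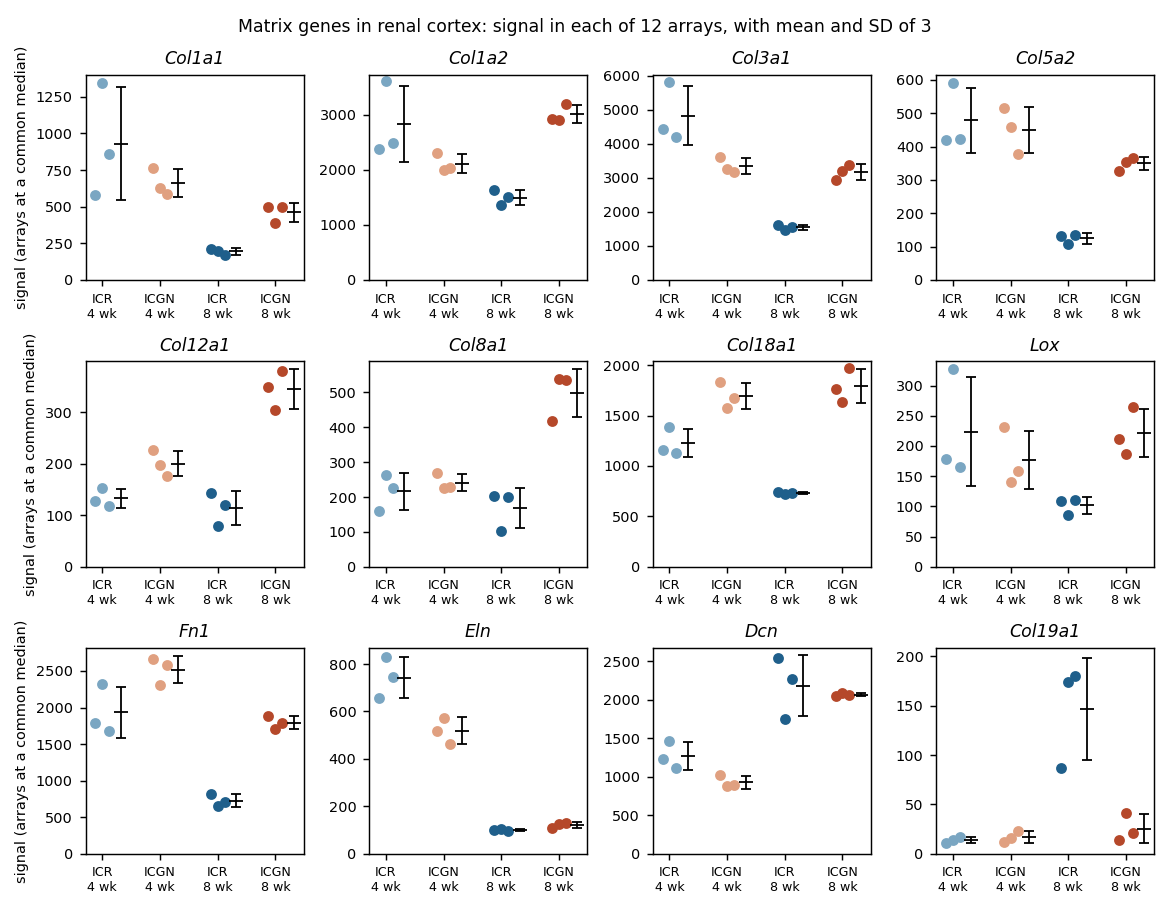
Signal of 12 genes in each of the 12 arrays (dots; arrays at a common median, linear axes from 0), by strain and age, with the mean and SD of 3 arrays beside each group. In ICR, signals of 10 of the 12 genes are lower at 8 than at 4 weeks by their means, all but Dcn and Col19a1, and at 8 weeks the ICGN means of the same 10 genes lie above the ICR means.

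Of 6 tested fibril-associated collagens, Col12a1 was higher and Col19a1 lower in ICGN than ICR at 8 weeks. Col12a1 encodes type XII collagen, which binds the surface of type I fibrils. Signals of Col12a1 were 128, 153 and 118 in ICR and 226, 197 and 176 in ICGN at 4 weeks, and 143, 78.2 and 119 in ICR and 349, 304 and 380.3 in ICGN at 8 weeks. ICGN lay above ICR without overlap at both ages. The difference was 1.75 ± 0.18 (SE; limma adjusted p = 3.2e-05) at 8 weeks, and 0.58 ± 0.18 at 4 weeks, where it was not called (adjusted p = 0.13). Col19a1 encodes type XIX collagen, found near basement membrane zones. At 4 weeks Col19a1 gave 11.1, 13.9 and 17.3 in ICR and 11.7, 16.2 and 23.1 in ICGN, and at 8 weeks it gave 87.4, 174 and 180.3 in ICR and 13.9, 41.7 and 20.9 in ICGN. Only ICR at 8 weeks read high, and at 4 weeks all 6 arrays lay at or below the array median. The difference at 8 weeks was -2.01 ± 0.34 (SE; limma adjusted p = 0.00026). Col19a1 passed the filter only with the 3 ICR arrays at 8 weeks, where it was high, so this p-value is no separate support for a difference. The gene was dim in 3 groups, and the size was -2.36 with an offset of 1 and -1.39 with 4 times the offset.

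The other fibril-associated collagens were not called in either strain comparison. Col14a1, the type XIV chain, ranged from 719 to 1561 and differed by -0.12 ± 0.14 at 8 weeks (adjusted p = 0.11). Col16a1 ranged from 94.8 to 159, Col9a1 from 12.9 to 74.2 and Col20a1 from 8.49 to 70.1, with adjusted p-values at 8 weeks of 0.23, 0.13 and 0.97. Col9a1 and Col20a1 hovered around the array median.

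Filament-forming and network collagens gave 2 calls higher of 6 at 8 weeks, Col8a1 and Col6a2. Type VIII collagen is a short-chain collagen made by vessel wall, endothelial and mesangial cells. For Col8a1, the 3 arrays read 159, 264 and 225 in ICR and 269, 227 and 229 in ICGN at 4 weeks, against 204, 104 and 199 in ICR and 419, 537 and 537 in ICGN at 8 weeks. The 3 ICGN arrays at 8 weeks were the highest of all 12, and the strains overlapped at 4 weeks. Col8a1 differed by 1.74 ± 0.22 (SE; limma adjusted p = 0.00014) at 8 weeks. Col6a1, Col6a2 and Col6a3 encode the 3 chains of the main type VI collagen. Signals of Col6a1 were 645, 857 and 704 in ICR and 643, 498 and 447 in ICGN at 4 weeks, and 263, 220.5 and 208 in ICR and 322, 271 and 299.9 in ICGN at 8 weeks. At 4 weeks Col6a2 gave 811, 989 and 894 in ICR and 796, 623 and 542 in ICGN, and at 8 weeks it gave 279, 234 and 298 in ICR and 415, 389.6 and 340.3 in ICGN. Both chains were lower in ICGN than ICR by their 4-week means and higher without overlap at 8 weeks. Col6a2 differed by 0.67 ± 0.15 (SE; limma adjusted p = 0.02), a call lost without ICGN replicate 1 or 2 or ICR replicate 2 at 8 weeks (0.55, 0.65 and 0.60, with adjusted p-values of 0.0744, 0.0562 and 0.0791). Col6a1, at 0.55 ± 0.15, was not called (adjusted p = 0.076), nor was Col6a3, at 0.52 ± 0.13 (adjusted p = 0.064), though both passed after centring on the tested genes. Col26a1 differed by 1.04 ± 0.32 (adjusted p = 0.052), with signals from 6.95 to 84.3, and Col7a1, dim at 8 weeks, by 0.56 ± 0.25 (adjusted p = 0.26).

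Types XV and XVIII collagen are multiplexins, proteins at the border of basement membrane and interstitium that carry glycosaminoglycan chains. The Col18a1 signal was 1161, 1386 and 1127 in ICR and 1831, 1575 and 1673 in ICGN at 4 weeks, and 741, 719.9 and 736 in ICR and 1768, 1635 and 1974 in ICGN at 8 weeks. Every ICGN array exceeded every ICR array at both ages. Col18a1 differed by 1.46 ± 0.12 (SE; limma adjusted p = 4.3e-06) at 8 weeks and by 0.49 ± 0.12 (SE; limma adjusted p = 0.042) at 4 weeks. The 4-week call was lost without the mean-variance trend (adjusted p = 0.0711), in the fit on all probe sets (adjusted p = 0.0542) and without any one of 7 arrays. These were the 3 ICGN arrays and ICR replicates 1 and 3 at 4 weeks, and ICGN replicate 2 and ICR replicate 1 at 8 weeks, with values from 0.40 to 0.53 and adjusted p-values from 0.0516 to 0.188. In the fit on all probe sets the other Col18a1 probe set was called higher at 4 weeks (0.58, limma adjusted p = 0.0314). Col15a1 had the opposite order at 4 weeks. Signals of Col15a1 were 291, 355 and 339 in ICR and 188, 227 and 192 in ICGN at 4 weeks, and 93.6, 120.4 and 195 in ICR and 169, 239 and 249 in ICGN at 8 weeks. ICGN read lower than ICR without overlap at 4 weeks, with no call (-0.65 ± 0.21, adjusted p = 0.11). At 8 weeks the strains overlapped in 1 ICR array, and the difference was 0.88 ± 0.21 (SE; limma adjusted p = 0.019), a call lost without ICGN replicate 2 or 3 or ICR replicate 1 or 2 at that age (values from 0.67 to 0.85, adjusted p-values from 0.0525 to 0.0851). The transmembrane collagen gene Col23a1 ranged from 11.2 to 56.8 and was not called at 8 weeks (-0.59 ± 0.31, adjusted p = 0.061).

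Lysyl oxidases oxidise lysines of collagen and elastin, the first step of crosslinking. At 8 weeks 2 of 4 tested genes were higher in ICGN than ICR. At 4 weeks Lox gave 178, 328 and 165 in ICR and 231, 140.1 and 158 in ICGN, and at 8 weeks it gave 109, 86.1 and 111 in ICR and 212, 187 and 265 in ICGN. At 4 weeks ICR replicate 2 and ICGN replicate 1 stood above the other arrays of their groups, and the strains overlapped, while at 8 weeks they did not. Lox differed by 1.24 ± 0.23 (SE; limma adjusted p = 0.0032) at 8 weeks. Loxl1, whose product acts mainly on elastic fibres, gave a smaller difference. For Loxl1, the 3 arrays read 538, 545 and 485 in ICR and 697, 456 and 456 in ICGN at 4 weeks, against 385, 353 and 335 in ICR and 576, 497 and 649 in ICGN at 8 weeks. Its strain difference was 0.85 ± 0.16 (SE; limma adjusted p = 0.0047) at 8 weeks and 0.03 ± 0.16 at 4 weeks (adjusted p = 0.99). Loxl3 (47.2 to 77.5) and Loxl4 (9.101 to 80.6) were not called at either age.

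Of 4 tested matrix proteoglycans only Bgn was called in a strain comparison. Biglycan is a small leucine-rich proteoglycan that binds collagen and, when soluble, innate immune receptors. The Bgn signal was 1933, 1536 and 1958 in ICR and 2038, 1858 and 1981 in ICGN at 4 weeks, and 1506, 1302 and 1389 in ICR and 2313, 2106 and 2561 in ICGN at 8 weeks. All ICGN arrays at 8 weeks exceeded all other arrays, and Bgn differed by 0.91 ± 0.12 (SE; limma adjusted p = 5e-04) at that age and by 0.14 ± 0.12 at 4 weeks (adjusted p = 0.73). Decorin, the related proteoglycan that coats fibrils, gave another pattern. Signals of Dcn were 1226, 1463 and 1106 in ICR and 1018, 872 and 886 in ICGN at 4 weeks, and 2533, 1749.6 and 2261 in ICR and 2044, 2088 and 2061 in ICGN at 8 weeks. ICGN was lower than ICR without overlap at 4 weeks and lay inside the ICR range at 8 weeks. There the difference was 0.12 ± 0.14 relative to the median gene (limma adjusted p = 0.76), while the mean was 2064 in ICGN and 2181 in ICR. Lumican (Lum, 135 to 272) and versican (Vcan, 10.9 to 59.1, dim in most arrays) differed by 0.31 ± 0.19 (adjusted p = 0.64) and 0.18 ± 0.45 (adjusted p = 0.99).

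Elastic fibre genes gave 1 call at each age among 3 tested. Eln encodes tropoelastin, the soluble precursor of elastin. At 4 weeks Eln gave 655, 829 and 743 in ICR and 518, 574 and 461 in ICGN, and at 8 weeks it gave 101, 104 and 95.5 in ICR and 108, 124 and 130.4 in ICGN. At 4 weeks every ICGN array read lower than every ICR array, and Eln was lower in ICGN by 0.49 ± 0.13 SE (limma adjusted p = 0.04). That call was lost on the deposited scale, without a filter, in the fit on all probe sets and without the trend (adjusted p-values from 0.0555 to 0.0662). It was also lost without any one of the 3 ICGN arrays or ICR replicates 2 and 3 at 4 weeks, or ICGN replicate 2 at 8 weeks, with values from -0.58 to -0.39 and adjusted p-values from 0.0553 to 0.163. At 8 weeks all ICGN arrays lay above ICR with no call (0.43 ± 0.13, adjusted p = 0.15). The other Eln probe set was uncalled at 4 weeks in the fit on all probe sets (-0.63, limma adjusted p = 0.184). Fibulin 1 (Fbln1), which binds fibronectin and elastin, ranged from 64.7 to 72.7 in ICR and from 90.1 to 125 in ICGN at 8 weeks, a difference of 0.83 ± 0.16 (SE; limma adjusted p = 0.0068). The other Fbln1 probe set was uncalled at 8 weeks in the fit on all probe sets (0.58, limma adjusted p = 0.166). Fibulin 5, needed to assemble elastic fibres, was not called. For Fbln5, the 3 arrays read 3059, 2915 and 3134 in ICR and 3022, 2638 and 3078 in ICGN at 4 weeks, against 2852, 2351 and 2684 in ICR and 2133, 2514 and 2626 in ICGN at 8 weeks. The strains overlapped at both ages. At 8 weeks Fbln5 differed by 0.07 ± 0.12 relative to the median gene (limma adjusted p = 0.47), while its mean was 2425 in ICGN and 2629 in ICR.

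Of 4 tested matrix glycoproteins 3 were higher in ICGN than ICR at 8 weeks. Fibronectin (Fn1) is the scaffold on which cells assemble other matrix fibres. The Fn1 signal was 1793, 2326 and 1679.7 in ICR and 2669, 2306 and 2580.1 in ICGN at 4 weeks, and 821, 650.4 and 705 in ICR and 1889, 1708 and 1785 in ICGN at 8 weeks. At 8 weeks the ICGN arrays read at least 1708 and the ICR arrays at most 821, while at 4 weeks the strains overlapped. Fn1 differed by 1.49 ± 0.13 (SE; limma adjusted p = 1.1e-05) at 8 weeks and 0.41 ± 0.13 at 4 weeks (adjusted p = 0.15). Tenascin C (Tnc) is a glycoprotein of developing and injured tissue. Signals of Tnc were 97.7, 111 and 75.3 in ICR and 141, 128 and 78.7 in ICGN at 4 weeks, and 57.7, 43.4 and 13.6 in ICR and 103, 101 and 80.5 in ICGN at 8 weeks. Its ICR arrays at 8 weeks were the lowest and lay below every ICGN array, with a difference of 1.45 ± 0.32 (SE; limma adjusted p = 0.007). Sparc encodes a collagen-binding glycoprotein. At 4 weeks Sparc gave 4808, 5238 and 4307 in ICR and 5442, 4231 and 4454 in ICGN, and at 8 weeks it gave 2919.6, 2895 and 3067 in ICR and 4018, 4067 and 5041 in ICGN. It differed by 0.74 ± 0.13 (SE; limma adjusted p = 0.0046) at 8 weeks, where the strains did not overlap, and by -0.01 ± 0.13 at 4 weeks (adjusted p = 0.96). Periostin (Postn) spread widely at 4 weeks, from 108 to 348 in ICGN, and was not called at 8 weeks (0.57 ± 0.27, adjusted p = 0.28).

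The 14 genes that did not pass the filter include collagens known from cartilage and skin: Col2a1, Col6a4, Col6a5, Col8a2, Col9a2, Col9a3, Col10a1, Col11a1, Col11a2, Col13a1, Col17a1, Col22a1, Col24a1 and Col25a1. Their signals lay between 0.344 and 47.7 over the 12 arrays. Col13a1, a transmembrane collagen, read 29.9, 34.1 and 33.9 in ICGN and 5.39, 16.5 and 17.8 in ICR at 4 weeks without overlap, but below the array median throughout, and it was not tested. Of the 37 tested genes 28 lay above the array median in all 12 arrays, and none passed only through the arrays of 1 group, although for Col19a1 the 3 ICR arrays at 8 weeks were 3 of the 4 above the median. Without those 3 arrays Col19a1 would not have passed. Its calls at 8 weeks, with age in ICR and in the interaction therefore rest on the group where it is high.

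Age comparisons ask how the same genes changed between 4 and 8 weeks within a strain. In ICR 21 of 37 genes (56.8%) fell and 2 (5.41%) rose, against 10.7% and 18% of all genes (28.8% in either direction). The median of the 37 genes was -0.78. In ICGN 5 (13.5%) fell and 5 (13.5%) rose, against 12.8% and 6.44% of all genes (19.3%), with a median of -0.02. Of the 21 genes lower in ICR, 5 (23.8%) were also lower in ICGN, which is 100% of the ICGN list: Col14a1, Col6a1, Col6a2, Eln and Fn1. Among all called genes 62.7% were higher with age in ICR and 33.4% in ICGN, shares that became 45.1% in ICR after quantile normalization and 48.7% in ICGN after centring on the tested genes. Under those settings 22 of 37 genes fell in ICR, and 4 fell and 6 rose in ICGN.

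Elastin showed the largest fall with age of the 37 genes in both strains, by 2.86 ± 0.13 in ICR (SE; limma adjusted p = 7.4e-09) and by 1.94 ± 0.13 in ICGN (adjusted p = 2.6e-07). Of the fibrillar genes, in ICR Col1a1 fell by 2.21, Col5a2 by 1.94, Col3a1 by 1.71, Col5a1 by 1.56 and Col1a2 by 0.98, with SE between 0.13 and 0.22 and adjusted p-values up to 0.00041. In ICGN Col1a1, Col5a2, Col5a1 and Col3a1 stood at -0.43, -0.27, -0.29 and 0.01 without a call, and Col1a2 rose by 0.59 ± 0.15 (adjusted p = 0.023), a call lost without any one of 4 ICGN arrays (replicates 2 and 3 at each age; adjusted p-values from 0.0511 to 0.0873). In the fit on all probe sets, the other Col1a2 probe set was uncalled with age in ICGN (0.02, limma adjusted p = 0.892). The other Col1a1 probe set was called lower there (-0.76, limma adjusted p = 0.0326). Of the type VI chains, Col6a1 and Col6a2 fell in both strains, by 1.72 and 1.79 in ICR and by 0.72 and 0.67 in ICGN. Fibronectin fell by 1.48 in ICR and by 0.40 in ICGN, the latter call being lost without ICGN replicate 1 or 3 at 4 weeks or replicate 2 at 8 weeks (adjusted p-values from 0.0575 to 0.0812). Col14a1 also fell in ICGN, by 0.34, a call lost in 10 alternative settings that include leaving out any ICGN array except replicate 2 at 4 weeks.

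Other genes called lower with age in ICR were Postn, Col26a1, Col15a1, Tnc, Fbln1, Lox, Col6a3, Col18a1, Sparc, Col14a1, Loxl1 and Bgn, from -1.50 to -0.45. The call on Bgn was lost in 8 alternative settings, and that on Loxl1 without ICR replicate 1 or 2 at 4 weeks or replicate 3 at 8 weeks (adjusted p-values from 0.051 to 0.0626). The other Fbln1 probe set was uncalled with age in ICR in the fit on all probe sets (-0.51, limma adjusted p = 0.158). In ICGN Col8a1 rose by 1.09 ± 0.22 (adjusted p = 0.0055) and Col12a1 by 0.84 ± 0.18 (adjusted p = 0.0092), while in ICR both were uncalled, at -0.46 and -0.33. Another probe set of each gene gave the reverse, lower with age in ICR (-0.95 and -0.96) and uncalled in ICGN (-0.13 and -0.03). Decorin rose in both strains, by 0.69 ± 0.14 in ICR (adjusted p = 0.00093) and 1.23 ± 0.14 in ICGN (adjusted p = 9.6e-05), against the direction of most matrix genes in ICR. Lumican rose in ICGN by 0.68 ± 0.19 (adjusted p = 0.04; lost in 6 alternative settings) and stood at -0.14 in ICR. Col19a1 rose in ICR by 2.61 ± 0.34 (adjusted p = 4.2e-05) and was uncalled in ICGN, at 0.43. Set against levels at 4 weeks on the common scale, the ICGN mean at 8 weeks was at or below the ICR mean at 4 weeks for 11 of the 17 genes higher in ICGN at 8 weeks, and above it for Col1a2, Col12a1, Col8a1, Col18a1, Loxl1 and Bgn. These means are of the probe set that stands for each gene. The same share over all genes was not computed, so the count is no result particular to matrix genes. Age and the set of arrays scaled together cannot be told apart in it.

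**Figure D3:**
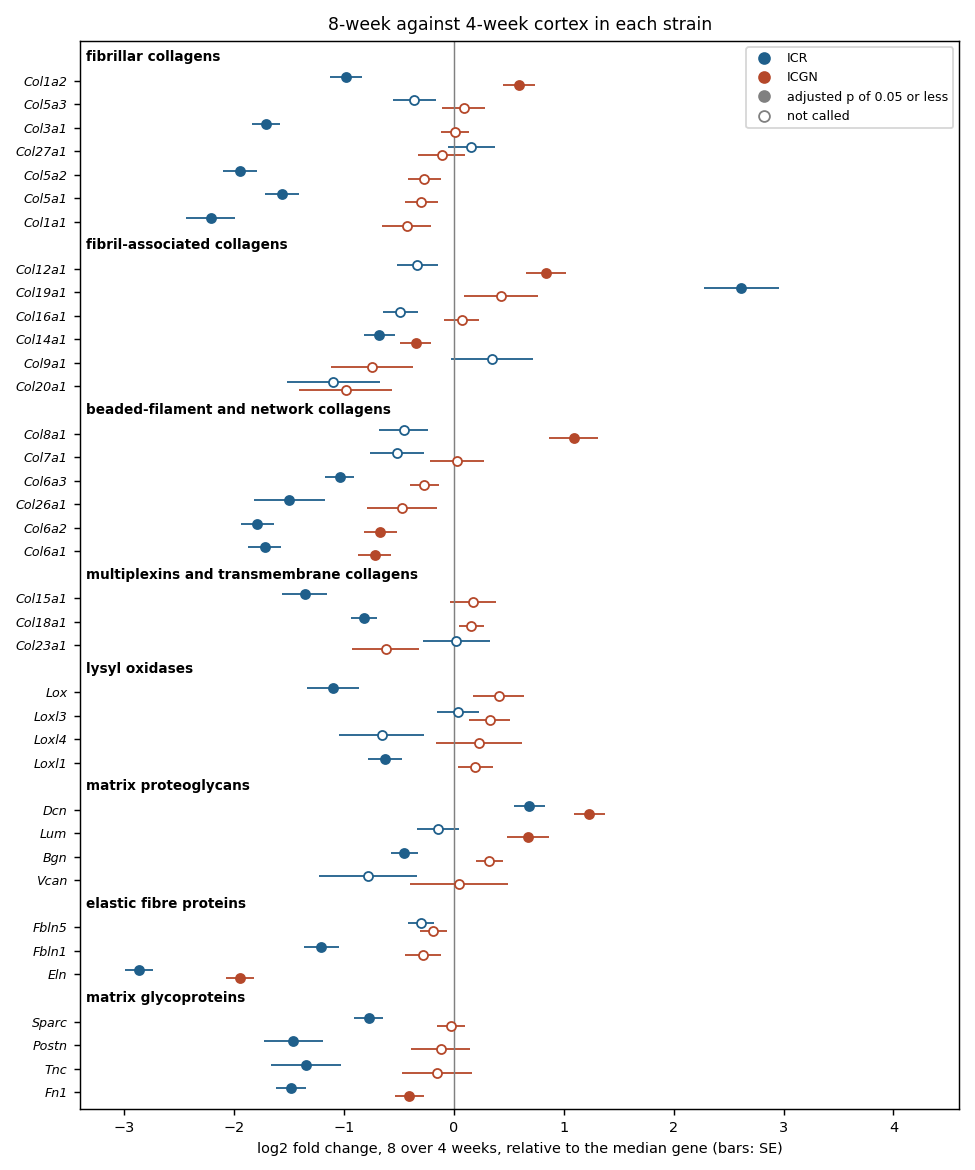
Log2 fold change of 8 over 4 weeks in ICR (blue) and ICGN (red) for the 37 tested genes, by role, with SE bars of the fit on 12 arrays; filled points are called (adjusted p at most 0.05). In ICR 21 filled points lie left of 0 and 2 right of it, and in ICGN 5 lie on each side.

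Whether the strain difference itself changed between the ages was tested by the interaction, which equals the difference between the age changes of the strains. It was called higher at 8 weeks for 15 of 37 genes (40.5%) and lower for Col19a1, against 2.2% and 5.68% of all genes (7.88% in either direction). The median of the 37 genes was 0.89. The interaction shares its arrays with both strain comparisons and is not independent of them. In the fibrillar group Col1a1 was at 1.79 ± 0.32 (SE; limma adjusted p = 0.0098), Col3a1 at 1.72 ± 0.18, Col5a2 at 1.68 ± 0.22, Col1a2 at 1.58 ± 0.21 and Col5a1 at 1.27 ± 0.21. Among the rest, Col8a1 was at 1.55 ± 0.32, Col15a1 at 1.54 ± 0.30, Lox at 1.51 ± 0.33 and Fn1 at 1.08 ± 0.19. In the fit on all probe sets, the other Col8a1 probe sets were uncalled, at 0.82 and 0.57 (limma adjusted p = 0.125 and 0.561). The other Col12a1 probe set was also uncalled, at 0.94 (limma adjusted p = 0.135). Of 20 genes with several probe sets, 18 had 1 sign throughout and 6 had all of them called alike. Eln was at 0.93 ± 0.18 (SE; limma adjusted p = 0.022), with strain differences of -0.49 at 4 weeks and 0.43 at 8 weeks. The other Eln probe set was uncalled in the fit on all probe sets, at 1.12 (limma adjusted p = 0.0934). Col6a1 was at 1.01 ± 0.21 (SE; limma adjusted p = 0.029), with -0.45 and 0.55. Loxl1, Fbln1, Sparc and Tnc were not called in the interaction, with adjusted p-values of 0.079, 0.055, 0.064 and 0.16. Without ICR replicate 2 at 4 weeks, or without ICGN replicate 3 at 4 weeks, the count was 10. The calls on Eln and Lox were among those lost without either array, with values of 0.82 and 1.19 without the first. Of all called genes 28% were higher, against 45.7% after centring on the tested genes, 54.2% after quantile normalization and 58.5% on the deposited scale, with 19, 16 and 19 of the 37 genes higher.

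Several probe sets report on 20 of the 37 genes, and when all 21826 tested probe sets with 1 symbol were fitted, no gene was called in both directions in any comparison. At 8 weeks the strain difference had 1 sign in all probe sets of 17 of the 20 genes, and in 13 all were called the same way. The other Col3a1 probe set gave 1.82 at 8 weeks and -0.60 at 4 weeks, both called, against 1.19 and -0.49 for the one used above in the same fit. The other Lox probe set gave 1.86 at 8 weeks against 1.21. The other Col6a2 probe set, of a kind that can cross-hybridise, gave 0.08 without a call, against 0.65.

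Genes that process, bind or sense this matrix were counted in 5 further lists. Of 18 tested genes of collagen biosynthesis and processing, 2 were higher in ICGN than ICR at 8 weeks and 5 lower. These shares of 11.1% and 27.8% lie near the 8.53% higher and 26.1% lower of all genes tested, and the median of the list was 0.28. Pcolce, an enhancer of procollagen trimming (0.83), and Serpinh1, the collagen chaperone HSP47 (0.55), were higher. P4hb (-0.50) and P4ha1 (-0.40), subunits of prolyl 4-hydroxylase, were lower. Of 14 tested matricellular genes, whose products signal from the matrix, 7 were higher in ICGN than ICR at 8 weeks and 1 lower. The shares were 50% and 7.14%, against 8.53% and 26.1% of all genes, with a list median of 0.86. The largest were Tgfbi (1.65), Smoc2 (1.61), Ccn1 (1.35) and Spon1 (1.29), and Tnxb, encoding tenascin X, was lower by 0.80. Tgfbi was at 207 ± 52.2 in ICR and 583 ± 101 in ICGN (SD, n = 3; limma adjusted p = 2.6e-05).

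Among 13 tested microfibril and elastic fibre partners Mfap2 (1.90), Emilin1 (1.36) and Efemp1 (0.67) were higher in ICGN at 8 weeks. Of all genes 8.53% were called higher. Ltbp1, a carrier of latent TGF-beta, was lower by 0.51 (7.69% lower, against 26.1% of all genes). Ltbp2 passed the filter only through the 3 ICGN arrays at 8 weeks and so had to differ, and its call is not counted here. Emilin1, an elastic fibre glycoprotein, was at 146 ± 35.01 in ICR and 337 ± 41.00 in ICGN (SD, n = 3; limma adjusted p = 6.1e-05). Of 9 other proteoglycans and hyaluronan genes, Cd44, the hyaluronan receptor, was higher by 3.04 ± 0.18 (limma adjusted p = 1.8e-07). Fmod, a fibril-binding proteoglycan, was lower by 0.87. Of this list 11.1% were higher, near the 8.53% of all genes, and 11.1% lower, against 26.1%. The list median was -0.09. Of 11 collagen and fibronectin receptors Ddr2, a collagen receptor of mesenchymal cells (0.76), and Lair1, an inhibitory collagen receptor of leukocytes (0.95, dim in ICR), were higher. That is 18.2%, against 8.53% of all genes, with a list median of 0.28. None of the 11 receptors was called lower, against 26.1% of all genes, and 0 were lower at an unadjusted limma p below 0.05. At 4 weeks these 5 lists held 3 calls higher and 1 lower among 65 tested genes, against 1.59% and 1.4% of all genes.

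Markers of cell types that make matrix or could enter the tissue sample differed between the strains in both directions at 8 weeks. Of all genes 8.53% were then called higher and 26.1% lower, shares that depend on the scaling. Of 8 fibroblast and pericyte markers 5 were higher in ICGN (Vim, S100a4, Cspg4, Thy1 and Pdgfrb), and their summed signal was 3287 to 3805 in ICGN against 1834 to 2446 in ICR. In ICR the sum was 2954 to 3181 at 4 weeks, and in ICGN it was 3617 to 4207. Smooth muscle markers gave 1 call higher (Tagln, 1.05) and 1 lower (Myh11, -0.75) of 4, and Acta2, the actin that marks myofibroblasts, was not called (0.27 ± 0.11, adjusted p = 0.59). Their sum was at least 4439 in either strain at 4 weeks and at most 2265 at 8 weeks. Of 6 macrophage markers 5 were higher in ICGN at 8 weeks, with a sum of 3602 to 4584 against 2384 to 3522. None of 7 inner medulla and urothelium markers was called in either strain comparison (limma; 0 at 4 weeks and 1 at 8 weeks had an unadjusted p below 0.05), and 1 of 3 tested fat markers, Retn, was lower at 8 weeks. Endothelial markers were lower in 4 of 5. None of the markers was listed at 0, and the part of these cell types in the matrix differences was not tested.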

How the data were processed

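Biotin-labelled RNA of renal cortex was measured, per the labels' protocols, on 12 Affymetrix arrays of the type Mouse Genome 430 2.0. What the authors deposited is a linear intensity for each probe set, made with MAS5 according to the submitters' processing notes, which name no version. In that table the mean after trimming 2% at each end was 100 in 4-week and 500 in 8-week arrays. Array medians were 17.4 to 19.0 at 4 weeks and 75.3 to 108 at 8 weeks. Of 45101 probe sets 64 were controls, 34945 had 1 symbol, 932 several and 9211 none. Of the gene IDs, 34741 matched RefSeq (GRCm38.p6), which changed 0 symbols.

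From these, each array was scaled to a median of 40.4, and log2(signal + 9) was taken, where 9 is the table's 25th percentile, so folds of dim genes are understated. Probe sets above their array's median in at least 3 of 12 arrays were kept (24790). Each gene was represented by its brightest probe set by mean, with those ending _x_at ranked last. R 4.3.3 and limma 3.58.1 (lmFit, eBayes with trend) fitted 4 group means to 12 arrays (8 residual degrees of freedom), with Benjamini-Hochberg adjustment over 12385 genes and calls at 0.05 or less. Printed log2 fold changes are relative to the contrast's median (shifts of -0.02, -0.19, -0.17, 0.09 and -0.08 for strain at 4 weeks, strain at 8 weeks, interaction, age in ICR and age in ICGN), whereas tests used the values without that subtraction. The steps were tested on simulated data.

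Genes, lists, tests and alternatives were chosen with earlier results of these data known. Values in every array are given for genes called at 8 weeks by at least 1 on the log2 scale, for those called at 4 weeks or in the interaction, and for the brightest of the main roles. Dcn, Col27a1, Col13a1 and the second-ranking genes of a role were added after their values were seen. Of each related list up to 4 called genes are named. Alternatives were an offset of 1 or 4 times larger, quantile normalization, centring on the tested genes, the deposited scale, no filter or one at the 75th percentile, all probe sets, no trend, only the 6 arrays compared, a replicate block and leaving out each array. Probe sets are given without coordinates, since no source used here names their build.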

Additional observations from a re-analysis of the deposited data

Results flagged for a closer look

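Strain differences that changed between the ages by the test of the interaction are listed here as log2 values at 8 weeks minus 4 weeks, relative to the median gene, with limma adjusted p. Among the fibrillar collagens Col1a1 was at 1.79 (adjusted p = 0.00976), Col3a1 at 1.72 (0.001), Col5a2 at 1.68 (0.00227), Col1a2 at 1.58 (0.00254) and Col5a1 at 1.27 (0.00946). Other collagens were Col8a1 at 1.55 (0.0191), Col15a1 at 1.54 (0.0153), Col12a1 at 1.18 (0.0296), Col6a2 at 1.13 (0.0161), Col6a1 at 1.01 (0.0292) and Col18a1 at 0.98 (0.0124). Another probe set of each of Col8a1, Col12a1, Col6a2 and Col5a1 was not called in the fit on all probe sets. Col19a1 was at -2.18 (0.0121), the one gene with a lower difference at 8 weeks. It passed the filter only with the ICR arrays at 8 weeks, where it was high. Among the other matrix genes Lox was at 1.51 (0.0244), Fn1 at 1.08 (0.0132), Eln at 0.93 (0.0217) and Bgn at 0.78 (0.0459). Another probe set of each of Eln, Bgn and Col19a1 was also uncalled in the fit on all probe sets. With 3 arrays in each of the 4 groups, the test for an outlying array within a group was not run. The call on Bgn was lost in 12 alternative settings, those on Col12a1 and Col6a1 in 7 each, on Lox in 4, on Eln in 2 and on Col8a1 in 1. Without ICR replicate 2 at 4 weeks the calls on Col12a1 (adjusted p = 0.077), Col6a1 (0.0776), Eln (0.0616), Lox (0.0502) and Col8a1 (0.0507) were lost.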

How the results depend on the processing

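No called gene among the 37 changed direction under any setting tried, but the split of calls over all genes did: the share higher went from 24.7% to 60% for strain at 8 weeks and from 28% to 58.5% in the interaction on the deposited scale, and from 62.7% to 45.1% with age in ICR after quantile normalization. Genes higher in ICGN at 4 weeks numbered 0 without the mean-variance trend (limma; 3 at an unadjusted p below 0.05). Genes lower in ICGN at 4 weeks numbered 1 after quantile normalization and with all probe sets, and 0 on the deposited scale, with no filter and without the trend (10 at an unadjusted p below 0.05 in each). Genes lower at 8 weeks numbered 1 after quantile normalization, on the deposited scale and with the filter at the 75th percentile. That filter also left 0 genes lower in the interaction and 1 higher with age in ICR, because Col19a1 was no longer tested. With only the 6 arrays compared, 8 genes were lower with age in ICGN. Leaving out each array in turn gave 0 to 2 genes higher and 0 to 3 lower at 4 weeks, 15 to 18 higher and 2 to 3 lower at 8 weeks, 10 to 18 higher and 1 lower in the interaction, 2 higher and 19 to 22 lower with age in ICR, and 3 to 5 higher and 3 to 6 lower in ICGN. The lowest counts came without ICGN replicate 2 at 8 weeks for genes higher at 8 weeks (15), and without ICR replicate 2 or ICGN replicate 3 at 4 weeks for the interaction (10). The numbers of higher genes in ICGN with age fell to 3 without ICGN replicate 2 or 3 at 4 weeks or replicate 2 at 8 weeks, and the lower ones to 3 without ICGN replicate 1 at 4 weeks or replicate 2 at 8 weeks.

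Over called genes and settings, 424 values kept their call and 10 lost it in the strain comparison at 8 weeks, against 39 and 30 at 4 weeks, 318 and 33 in the interaction, 491 and 11 with age in ICR and 197 and 23 with age in ICGN. Replicate numbers did not pair the samples: of 18 same-number pairs of arrays 1 correlated above 0.1 in deviations from the group means (range -0.0992 to 0.114), and 4 of 12 arrays correlated best with their own number. With the replicate block 16 genes were higher in the interaction, 4 lower with age in ICGN, and the other 8 counts were as before. Signals near the array median, as for Col19a1, Col9a1, Col20a1, Col7a1, Col23a1 and Vcan, limit what these arrays can show.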

Other observations

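Probe sets of one gene differed in size. For several genes, among them Col12a1, Col8a1, Col1a1, Col1a2, Lox and Bgn, they also differed in which age comparison was called. In the fit on all 21826 probe sets, another Col1a2 probe set gave -2.26 with age in ICR and 1.82 for ICGN over ICR at 8 weeks, against -0.98 and 1.17 for the one that stands for the gene in the report. With age in ICGN the other one was uncalled at 0.02, while the one that stands for the gene was called at 0.57. A second Col12a1 probe set was lower with age in ICR (-0.96, limma adjusted p = 0.00708) and at -0.03 in ICGN, where the main one was at -0.33 without a call in ICR and at 0.82 in ICGN (adjusted p = 0.0102). A second Col8a1 probe set was lower with age in ICR (-0.95, adjusted p = 0.00231) and at -0.13 in ICGN, against -0.45 and 1.07 (adjusted p = 0.00593) for the main one. Both Eln probe sets were lower with age in ICR, at -4.29 and -2.86. The source of these differences was not tested.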
